A study of Mus musculus with 12 samples.

Results

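The IL-1 family cytokines and the inflammasome machinery that processes them were followed as 10 genes of the 48526 in the read count table, found by matching each Ensembl identifier to its mouse symbol. They are the ligands *Il1a*, *Il1b* and *Il18*, the secreted antagonists *Il1rn* and *Il18bp*, the sensor *Nlrp3*, the adaptor *Pycard*, the proteases *Casp1* and *Casp4*, and the pore-forming protein gene *Gsdmd*. RNA was sequenced from bone marrow-derived macrophages (BMDMs) of 3 female C57Bl/6J mice, with no engineered allele named in any group. All groups shared the same marrow culture in low-glucose DMEM with the growth factor M-CSF, and on day 7 each animal contributed cells kept without treatment or given 100 ng/mL Wnt3a, 100 pg/mL IL-4 or both for 16 hr. By the study's methods, marrow came from animals of 6 to 20 weeks of age, without an age per sample.

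IL-1β and IL-18 are made as inactive precursors without a secretion signal. A sensor such as NLRP3 recruits the adaptor ASC, the product of *Pycard*, which activates caspase-1. Caspase-1 cleaves both precursors as well as gasdermin D, whose freed fragment forms membrane pores through which the cytokines leave the cell, while caspase-11, the product of *Casp4* in the mouse, senses intracellular lipopolysaccharide and also cleaves gasdermin D. IL-1 receptor antagonist occupies the IL-1 receptor without signalling, and IL-18 binding protein traps IL-18 outside the cell. In macrophages *Il1b* and *Nlrp3* are classic genes primed by NF-κB, and IL-1β is a well-known driver of plaque inflammation. Read counts measure the transcripts only, so cleavage and secretion were not measured.

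Within a mouse, the columns labelled Wnt3a and Wnt3a+IL-4 share reads. In every mouse no gene had a Wnt3a+IL-4 count above its Wnt3a count, or below its Wnt3a count divided by 2, whereas 6681 to 8625 genes broke those bounds when the columns of different mice were paired. The shared reads were therefore solved into 2 parts for each mouse, called here the difference (counts labelled Wnt3a less those labelled Wnt3a+IL-4) and the remainder (the latter taken 2 times, less the former). The labels do not say which part is the Wnt3a culture and which the Wnt3a+IL-4 culture, and neither assignment was chosen. That each part holds the reads of 1 culture only was assumed and was not tested. The 12 libraries, counting each part as 1, held 13342492 to 17453377 counts.

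The promoters of 4 members are shown, those of the IL-1 ligand genes *Il1b* and *Il1a*, of the IL-1 antagonist gene and of the sensor gene. Each is the 250 bases before an annotated start in RefSeq (GRCm38.p6), 5′ to 3′ on the strand of the gene, and capitals mark a match to a motif given in the next paragraph. RefSeq entries were matched for 9 of the 10 members. *Il1rn* has 3 RefSeq windows and *Nlrp3* has 2, and the one nearest the annotated gene start in GENCODE is printed.
Il1b, chr2:129371140-129371389, minus strand: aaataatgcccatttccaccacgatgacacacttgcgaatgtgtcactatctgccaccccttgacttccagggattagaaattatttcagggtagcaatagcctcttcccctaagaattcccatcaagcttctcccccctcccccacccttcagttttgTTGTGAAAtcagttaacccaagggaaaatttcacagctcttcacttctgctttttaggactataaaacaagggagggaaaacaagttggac
Il1a, chr2:129309973-129310222, minus strand: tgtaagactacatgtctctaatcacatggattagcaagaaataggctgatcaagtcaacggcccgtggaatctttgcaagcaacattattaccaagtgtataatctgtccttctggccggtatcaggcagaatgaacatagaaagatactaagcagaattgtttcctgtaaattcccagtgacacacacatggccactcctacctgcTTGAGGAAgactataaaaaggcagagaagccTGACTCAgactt
Il1rn, chr2:24336610-24336859, plus strand: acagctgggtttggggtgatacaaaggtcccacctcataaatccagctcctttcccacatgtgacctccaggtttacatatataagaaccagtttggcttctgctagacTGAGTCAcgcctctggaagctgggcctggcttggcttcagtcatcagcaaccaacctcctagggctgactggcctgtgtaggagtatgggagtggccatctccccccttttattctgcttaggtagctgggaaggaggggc
Nlrp3, chr11:59541319-59541568, plus strand: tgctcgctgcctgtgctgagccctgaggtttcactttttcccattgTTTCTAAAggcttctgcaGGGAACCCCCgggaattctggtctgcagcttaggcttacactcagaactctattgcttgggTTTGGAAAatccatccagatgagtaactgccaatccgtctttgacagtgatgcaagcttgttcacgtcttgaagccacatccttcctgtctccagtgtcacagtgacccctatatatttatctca

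The motifs were searched on both strands. The C/EBP motif TTNNGNAA was present in the *Il1b* promoter 91 bases upstream of the start and in the *Il1a* promoter 43 bases upstream, where it overlaps a PU.1 motif GAGGAA. It occurred in 40.7% of the 32851 RefSeq promoters, and GAGGAA in 28.3%. The AP-1 motif TGANTCA lay 12 bases upstream in *Il1a* and 141 bases upstream in *Il1rn*, against 7.81% of all promoters. The *Nlrp3* sequence held an NF-κB consensus match 186 bases upstream, which 4.51% of promoters held, and C/EBP matches 204 and 125 bases upstream. The other *Nlrp3* window held PU.1 and C/EBP matches and no NF-κB match, and both other *Il1rn* windows held C/EBP matches. No letters matching the STAT motif TTCNNNGAA (8.3% of promoters), the TCF/LEF motif CTTTGAT (3.73%), the interferon response (ISRE) motif (3.44%) or the cyclic AMP response motif TGACGTCA (1.79%) were in these 4 windows. The shares refer to 300-base windows that also hold the 50 bases after the start.

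Against untreated cells *Il1b*, *Il1rn*, *Il18bp*, *Pycard* and *Gsdmd* were higher and *Nlrp3* was lower in both Wnt3a-containing parts. IL-4 alone raised *Il18bp* and lowered *Nlrp3*. The parts differed from each other in 4 members, with less *Il1b* and *Nlrp3* and more *Il1rn* and *Il18bp* in the remainder. Calls used edgeR's quasi-likelihood test at an adjusted p under 0.05 over 12421 genes. The members and the pathway list were chosen with earlier results of these data known, so their shares called are descriptions and not tests. All 10 members passed the count filter. *Il1a* passed it only through the Wnt3a-containing parts, where it was higher than in untreated cells, so it had to differ. In the difference 7 of 10 members were called (6 higher and 1 lower) where 23.2% of all tested genes were (11.8% higher and 11.4% lower), and the median log2 fold change of all tested genes was -0.01. Without *Il1a*, whose call the filter decided, 6 of 9 were called (5 higher and 1 lower), with a median of 0.48. In the remainder 7 of 10 members were called (6 higher and 1 lower) where 25.3% of all genes were (13.6% higher and 11.7% lower). Without *Il1a* 6 of 9 were called (5 higher and 1 lower), with a median of 0.42 against -0.02 for all tested genes. For IL-4 alone 2 of 10 were called (1 higher and 1 lower) against 3.4%, with a median of -0.16, or -0.07 without *Il1a*. Between the parts 4 of 10 were called (2 higher and 2 lower in the remainder) against 5.25%. The median there was -0.22, or -0.15 without *Il1a*. The comparisons with untreated cells share the same 3 untreated libraries. In these bulk samples fewer cells of a type and less RNA per cell cannot be told apart.

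**Figure D1:**
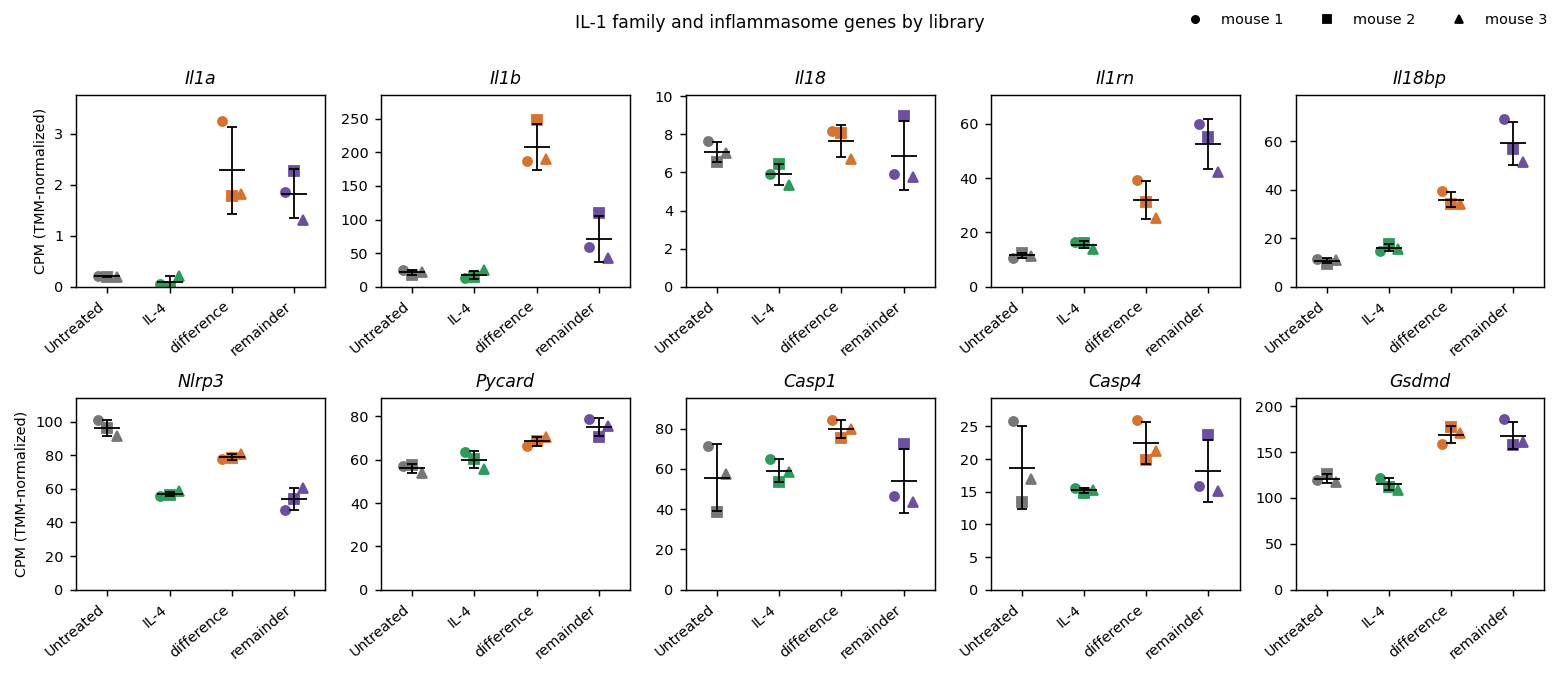
Normalized read counts relative to library size (CPM, y axis, linear from 0) of each member in untreated, IL-4, difference and remainder libraries (x axis), with 1 symbol per mouse and bars for mean ± SD (n = 3). *Il1b* was highest in the difference, *Il1rn* and *Il18bp* were highest in the remainder, and *Nlrp3* was highest in untreated cells.

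*Il1b* (ENSMUSG00000027398, chr2:129364570-129371139, minus strand, GENCODE M21 on mm10) encodes the secreted IL-1 ligand of macrophages. It had 451, 270 and 347 counts in untreated mice 1, 2 and 3. IL-4 libraries held 211, 227 and 344 counts. The difference held 3262, 4061 and 2617 counts and the remainder 959, 1769 and 656. Every library of the difference lay above every library of the remainder, which in turn lay above all untreated and IL-4 libraries, and the untreated and IL-4 ranges overlapped. As levels in CPM (normalized read counts relative to library size), these were 21.1 ± 3.48 (SD, n = 3) untreated, 17.3 ± 6.56 with IL-4, 208 ± 34.4 in the difference and 70.5 ± 34.1 in the remainder. The log2 fold change against untreated was 3.30 ± 0.31 (SE, adjusted p = 3e-06) in the difference and 1.74 ± 0.30 (adjusted p = 0.00062) in the remainder. With IL-4 alone it was -0.30 (95% interval -0.97 to 0.37, adjusted p = 0.75), which does not show that the level was the same. The remainder was lower than the difference by a log2 value of -1.56 ± 0.28 (adjusted p = 0.0046), in 3 of 3 mice, and the value was -1.37 (adjusted p = 0.074) without mouse 3. Of its exon bases 1.31% overlap *Il1bos* on the other strand, and whether counting used strand is not given.

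*Il1a* (ENSMUSG00000027399, chr2:129299610-129309972, minus strand), the ligand that also acts from the cell surface, was near the limit of detection without Wnt3a. Untreated libraries held 4, 3 and 3 counts and IL-4 libraries 1, 0 and 3. The difference held 57, 29 and 25 counts and the remainder 30, 37 and 20. All 6 Wnt3a-containing parts were above all 6 other libraries. The gene passed the count filter only through those parts, so it had to differ. Summed over mice and scaled to depth, the counts were 11.0 times the untreated counts in the difference (95% exact interval 5.75 to 23.5) and 8.49 times in the remainder (4.4 to 18.3), both intervals covering counting error only. The ratio of remainder to difference was 0.774 (0.577 to 1.03). A long noncoding gene, *Gm14023*, overlaps 11.2% of its exon bases on the other strand.

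*Il18* (ENSMUSG00000039217, chr9:50554827-50581840, plus strand) encodes a ligand that drives interferon-γ production by lymphocytes. Its counts were 142, 102 and 112 untreated, 99, 101 and 74 with IL-4, 143, 132 and 92 in the difference and 95, 146 and 88 in the remainder. In CPM the ranges of both Wnt3a-containing parts overlapped the untreated range. The IL-4 libraries (5.34 to 6.45 CPM) lay below the untreated ones (6.56 to 7.63 CPM), and lower in 3 of 3 mice. They also lay below the difference in 3 of 3 mice (log2 value 0.37 for the difference against IL-4, adjusted p = 0.17). No comparison was called, and the log2 fold change against untreated was 0.11 (95% interval -0.26 to 0.49) in the difference, -0.04 (-0.42 to 0.34) in the remainder and -0.26 (-0.64 to 0.12) with IL-4.

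*Il1rn* (ENSMUSG00000026981, chr2:24336853-24351494, plus strand), the IL-1 receptor antagonist gene, had 196, 195 and 182 counts in untreated mice. IL-4 libraries held 272, 251 and 193 counts. The difference held 685, 510 and 348 counts and the remainder 967, 899 and 645. In CPM the groups did not overlap and lay in the order untreated (11.5 ± 1.01), IL-4 (15.4 ± 1.3), difference (31.9 ± 6.98) and remainder (52.6 ± 9.14; all SD, n = 3). The log2 fold change against untreated was 1.48 ± 0.17 (SE, adjusted p = 1.7e-05) in the difference and 2.19 ± 0.17 (adjusted p = 3.2e-07) in the remainder. IL-4 alone gave 0.43 (95% interval 0.06 to 0.79), higher in 3 of 3 mice, which did not pass the correction (adjusted p = 0.24). The remainder exceeded the difference by 0.72 ± 0.16 (adjusted p = 0.015) in 3 of 3 mice. That call was lost without mouse 2 (adjusted p = 0.051) or mouse 3 (0.1), without the difference of mouse 2 (0.065) or mouse 3 (0.071) or the remainder of mouse 1 (0.067), and when only the compared groups were fitted (0.059).

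*Il18bp* (ENSMUSG00000070427, chr7:102014885-102018690, minus strand), the gene for the soluble IL-18 trap, followed the same order of groups. Counts were 209, 146 and 176 untreated, 247, 276 and 217 with IL-4, 691, 558 and 470 in the difference and 1110, 923 and 780 in the remainder. No library of one group reached the CPM range of another. Mean levels were 10.6 ± 1.01, 16.0 ± 1.45, 35.9 ± 3.13 and 59.0 ± 9.06 CPM in that order. The log2 fold change against untreated was 1.77 ± 0.13 (adjusted p = 3.5e-07) in the difference, 2.48 ± 0.13 (adjusted p = 1.4e-08) in the remainder and 0.60 ± 0.13 (adjusted p = 0.022) with IL-4. The IL-4 call was lost without mouse 2 (adjusted p = 0.25) or mouse 3 (0.27), without either untreated library of those mice (0.088 and 0.077) or either IL-4 library (0.14 and 0.081), and under scaling to total counts (0.051). The remainder exceeded the difference by 0.71 ± 0.12 (adjusted p = 0.0031), and by 0.77 (adjusted p = 0.11) without mouse 3. Of its exon bases 2.64% overlap *Numa1* on the other strand.

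The antagonist and ligand counts were also set against each other within each library, with no test. The ratio of *Il1rn* to *Il1b* counts was 0.435, 0.722 and 0.524 untreated, 1.29, 1.11 and 0.561 with IL-4, 0.21, 0.126 and 0.133 in the difference and 1.01, 0.508 and 0.983 in the remainder. The difference was below every other library, and the remaining 3 groups overlapped. The ratio of *Il18bp* to *Il18* counts averaged 1.49 ± 0.0721 untreated, 2.72 ± 0.219 with IL-4, 4.72 ± 0.451 in the difference and 8.96 ± 2.68 in the remainder (SD, n = 3), and its 4 groups did not overlap. These compare read counts, not of molecules or protein. Per kilobase of summed exons the mean *Il1rn* to *Il1b* ratio was 0.193, 0.339, 0.0538 and 0.287 in the same order of groups, and the mean *Il18bp* to *Il18* ratio 0.508, 0.927, 1.61 and 3.05. The size of these ratios depends on the gene length used.

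**Figure D2:**
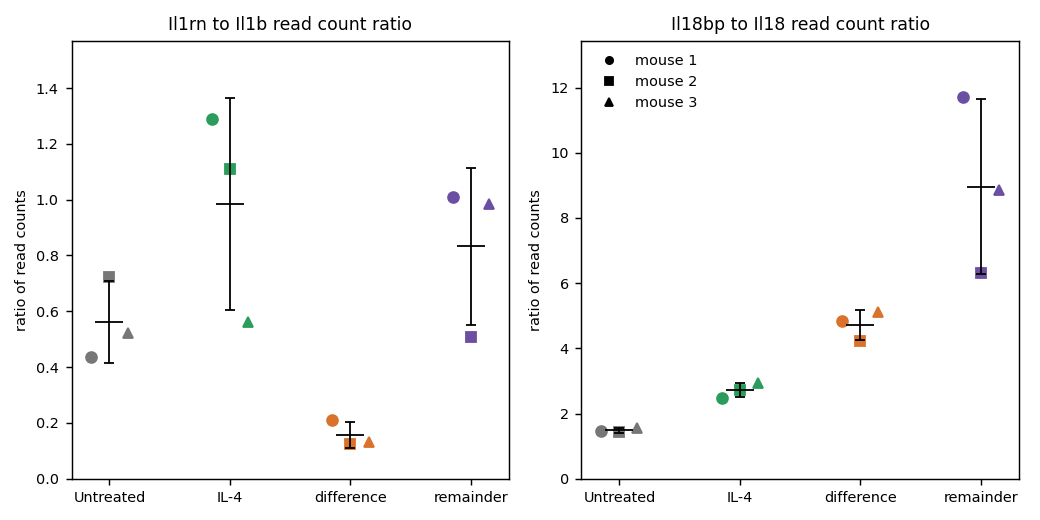
Ratio of antagonist to ligand read counts in each library (y axes, linear from 0) for *Il1rn* to *Il1b* and *Il18bp* to *Il18*, by group (x axis), with 1 symbol per mouse and bars for mean ± SD (n = 3). The *Il1rn* to *Il1b* ratio was lowest in the difference, at 0.126 to 0.21, and the *Il18bp* to *Il18* ratio was highest in the remainder, at 6.32 to 11.7.

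*Nlrp3* (ENSMUSG00000032691, chr11:59541568-59566956, plus strand), the inflammasome sensor gene, was lower than in untreated cells with IL-4 and in both parts. It had 1878, 1497 and 1459 counts untreated and 935, 883 and 811 with IL-4. The difference held 1355, 1280 and 1110 counts and the remainder 762, 875 and 919. Untreated libraries were highest in CPM, the difference came next without overlapping them, and the IL-4 and remainder ranges lay below both and overlapped each other. The levels were 96.2 ± 4.72 CPM untreated, 57.0 ± 1.33 with IL-4, 78.8 ± 1.67 in the difference and 53.8 ± 6.53 in the remainder. Its log2 fold change against untreated was -0.76 ± 0.09 (adjusted p = 0.00012) with IL-4 and -0.84 ± 0.09 (adjusted p = 5.8e-06) in the remainder, each lower in 3 of 3 mice. In the difference it was -0.29 ± 0.08 (adjusted p = 0.023). This last call was lost when mouse 1, 2 or 3 was left out (adjusted p = 0.088, 0.14 and 0.084), without the untreated library of mouse 1 (0.077) or 2 (0.053), without the difference of mouse 1 (0.063) or 2 (0.072), and with a minimum of 1 count (0.052). The remainder was below the difference by -0.55 ± 0.09 (adjusted p = 0.0016). Against IL-4 the remainder gave -0.08 (95% interval -0.27 to 0.10, adjusted p = 0.56) and the difference 0.47 (adjusted p = 0.001).

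*Pycard* (ENSMUSG00000030793, chr7:127989708-127993867, minus strand), the gene for the ASC adaptor, rose by less. Its levels were 56.0 ± 1.95 CPM untreated, 59.9 ± 3.94 with IL-4, 68.4 ± 2.13 in the difference and 75.0 ± 4.16 in the remainder, from 772 to 1269 counts per library. All 6 Wnt3a-containing parts were above all untreated libraries, and the untreated and IL-4 ranges overlapped. The log2 fold change was 0.29 ± 0.08 (adjusted p = 0.014) in the difference, lost without mouse 2 (adjusted p = 0.077), mouse 3 (0.21) or the difference of mouse 3 (0.051). In the remainder it was 0.42 ± 0.08 (adjusted p = 0.00087), lost without mouse 3 (0.054). Of its exon bases 12.8% overlap *Gm45205* on the other strand, so part of its reads cannot be assigned without strand.

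*Gsdmd* (ENSMUSG00000022575, chr15:75862327-75867408, plus strand), the gene for the pore-forming gasdermin D, had 2229, 1959 and 1860 counts untreated and 2039, 1760 and 1516 with IL-4. The difference held 2777, 2895 and 2354 counts and the remainder 2987, 2579 and 2454. In CPM every Wnt3a-containing part exceeded every untreated and IL-4 library, and the parts overlapped each other. The log2 fold change against untreated was 0.48 ± 0.08 in both parts (adjusted p = 0.00053 in the difference and 0.00048 in the remainder). With IL-4 it was -0.07 (95% interval -0.25 to 0.10).

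*Casp1* (ENSMUSG00000025888, chr9:5298517-5307265, plus strand) and *Casp4* (ENSMUSG00000033538, chr9:5308828-5336783, plus strand), neighbours on the same chromosome, encode the inflammatory caspases. *Casp1* had 1330, 597 and 912 counts untreated, 1084, 840 and 811 with IL-4, 1471, 1234 and 1099 in the difference and 748, 1175 and 661 in the remainder. *Casp4* had 480, 210 and 270 counts untreated, 258, 231 and 212 with IL-4, 455, 326 and 293 in the difference and 256, 385 and 230 in the remainder. Both genes spread widely among the untreated libraries and among those of the remainder, with mouse 1 highest and mouse 2 lowest among untreated cells and mouse 2 highest in the remainder. Neither was called in any comparison among the 4 groups. For *Casp1* the log2 fold change was 0.52 (95% interval 0.08 to 0.95, adjusted p = 0.081) in the difference and -0.05 (-0.48 to 0.39) in the remainder. It was called higher in the difference by DESeq2 (adjusted p = 0.043), with a minimum of 1 count (1.7e-05), without the untreated library of mouse 1 (0.73, adjusted p = 0.02) and without the remainder of mouse 2 (0.041). Without mouse 2 it was called lower in the remainder than in untreated cells (-0.51, adjusted p = 0.008) and in IL-4 cells (-0.44, adjusted p = 0.025). Between the parts its value was -0.56 ± 0.20 (SE, adjusted p = 0.14), called with a minimum of 1 count (-0.57, adjusted p = 7.8e-06), without mouse 2 (-0.86, adjusted p = 0.0013), without the remainder of mouse 2 (0.021) and without the untreated library of mouse 2 (0.047). The *Casp4* value was 0.25 (-0.20 to 0.71) in the difference and -0.04 (-0.50 to 0.41) in the remainder.

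**Figure D3:**
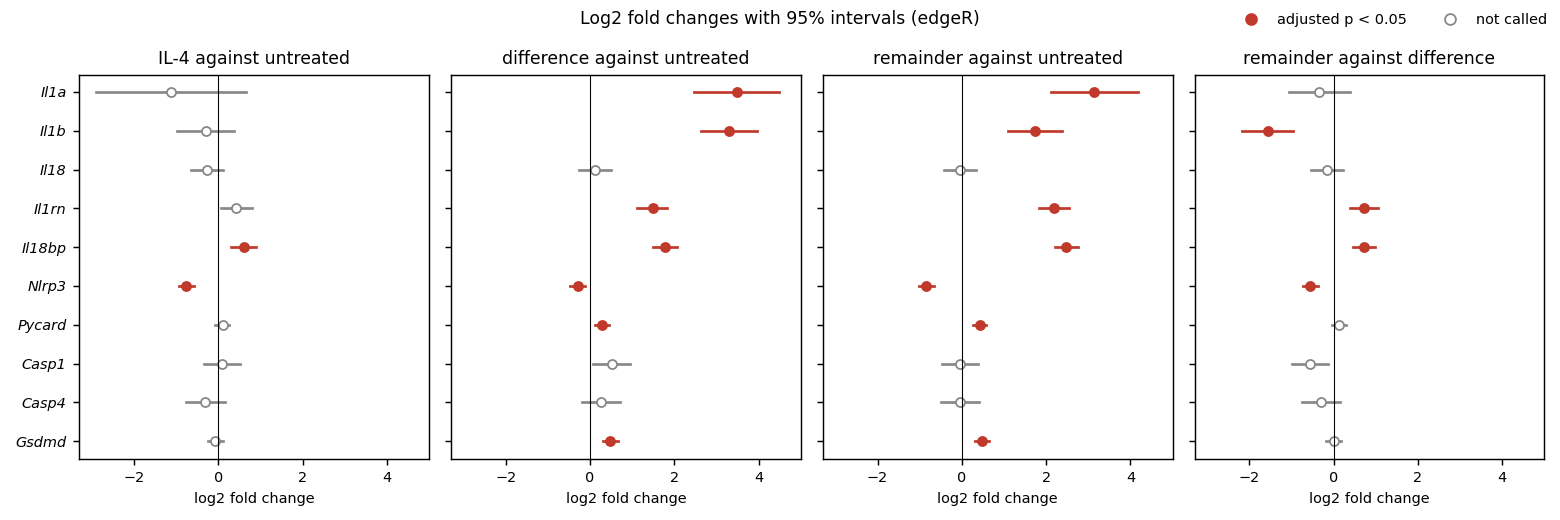
Log2 fold changes (x axis) of the 10 members (y axis) with their 95% intervals from edgeR in 4 comparisons, with filled symbols at an adjusted p under 0.05. *Il1b* was at 3.30 for the difference and 1.74 for the remainder, and *Nlrp3* was the only member below 0 and called in each comparison with untreated cells.

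Against IL-4 alone 6 of 10 members were called in the remainder, all of them higher, where 20.3% of all tested genes were called. In the difference 6 of 10 were called, again all higher, where 20.3% of all genes were. *Il1a*, at 1, 0 and 3 counts with IL-4, is one of the 6 each time and passed the filter only through the parts, and without it 5 of 9 were called in each. *Il1b*, *Il1rn*, *Il18bp* and *Gsdmd* were higher in both parts. *Il1b* exceeded IL-4 cells by a log2 value of 2.03 in the remainder and 3.60 in the difference, and *Il1rn* by 1.77 and 1.05. *Nlrp3* was called in the difference only and *Pycard* in the remainder (0.32, adjusted p = 0.0067, and 0.29, adjusted p = 0.17, without mouse 3). The *Pycard* value in the difference was 0.19 (95% interval 0.03 to 0.35, adjusted p = 0.095), although it was called without the remainder of mouse 2 (0.048). *Casp4* there was 0.56 (0.10 to 1.03, adjusted p = 0.084), and was called with a minimum of 1 count (0.00055), with only the compared groups fitted (0.0041), by DESeq2 (0.047), without mouse 2 (0.037) and without the untreated library of mouse 1 (0.028) or mouse 2 (0.037). *Casp1* there was 0.43 (0.00 to 0.87, adjusted p = 0.16), and was called with a minimum of 1 count (0.00031), with only the compared groups fitted (0.0023) and without mouse 2 (0.034).

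Whether IL-4 acted differently with and without Wnt3a was tested under both assignments of the parts. With the remainder taken as the Wnt3a+IL-4 culture 0 of 10 members were called by edgeR and 0 by DESeq2, where 0.105% of all genes were called by edgeR. DESeq2 called 165 genes in all. At an unadjusted p under 0.05 there were 2 members, *Il1b* (log2 value -1.26, adjusted p = 0.24) and *Casp1* (-0.64, adjusted p = 0.37). Both were called by edgeR with a minimum of 1 count (adjusted p = 5.5e-13 and 0.0028), a setting that called 575 genes in all. With the difference taken as the Wnt3a+IL-4 culture 4 of 10 were called against 7.33%. Each value is the log2 effect of IL-4 with Wnt3a less that without it. Under that assignment it was 1.86 for *Il1b* (adjusted p = 0.014) and 1.31 for *Nlrp3* (adjusted p = 8.9e-06). For *Il1rn* it was -1.15 (adjusted p = 0.0063) and for *Il18bp* -1.31 (adjusted p = 0.00027). Without Wnt3a, IL-4 gave -0.30, -0.76, 0.43 and 0.60 in that order, of which only *Nlrp3* and *Il18bp* were called. With Wnt3a all 4 effects had the opposite sign under that assignment. With the remainder as the Wnt3a+IL-4 culture they had the same sign as without Wnt3a, at -1.56, -0.55, 0.72 and 0.71 in that order. *Il1b* and *Nlrp3* were higher, and *Il1rn* and *Il18bp* lower, in the difference than in the remainder. With the difference as the Wnt3a+IL-4 culture, the *Il1b* call was lost without mouse 1 (1.53, adjusted p = 0.15). Without mouse 2, *Casp1* (0.93, adjusted p = 0.0047) and *Casp4* (1.09, adjusted p = 0.019) were called as well.

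Per kilobase of summed exons, the order in untreated cells was *Gsdmd* (50.8 CPM per kb), *Casp1* (37.2), *Nlrp3* (23.7), *Pycard* (14.7), *Il1b* (11.1), *Il18* (6.86), *Casp4* (5.05), *Il18bp* (3.49), *Il1rn* (2.08) and *Il1a* (0.101). *Casp4* (SD 1.71, n = 3) overlapped both of its neighbours, *Il18* (SD 0.521) and *Il18bp* (SD 0.334), within 1 SD. In the difference part *Il1b* stood first at 109 ± 18.0 CPM per kb, above *Gsdmd* at 71.1 ± 3.83. In the remainder *Gsdmd* was first at 70.8 ± 6.26, and *Il1b* (36.9 ± 17.9) and *Casp1* (36.1 ± 10.6) overlapped. With the mean transcript length in place of the summed exons 32 of these 40 levels moved by more than 1 SD. *Gsdmd* was then 142 and *Il1b* and *Pycard* both 26.1 CPM per kb in untreated cells, and in the remainder *Il1b* was 87.2 and *Casp1* 36.1, so these orders depend on the length used.

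The other genes of the pathway comprised 47 listed genes, of which 34 passed the count filter. *Naip1* passed only through the Wnt3a-containing parts, so it had to differ and is left out of the counts that follow. Against untreated cells 8 of 33 were higher and 4 lower in the difference (36.4% called, against 23.2% of all tested genes). In the remainder 5 were higher and 5 lower (30.3% against 25.3%), and with IL-4 3 were higher and 1 lower (12.1% against 3.4%). Between the parts 1 was higher and 1 lower, at 6.06% near the 5.25% of all genes. Of the remaining IL-1 family ligands none of 6 passed the filter. *Il33*, *Il36a*, *Il36b*, *Il36rn* and *Il1f10* had 0 counts in all 12 libraries, and *Il36g* reached 13 counts in 1 library.

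Among the receptors 2 of 5 tested were called against untreated cells, both higher in both parts, where 23.2% and 25.3% of all genes were called. *Il1rl2*, the IL-36 receptor gene, had 34, 17 and 21 counts untreated, 145, 112 and 98 with IL-4, 214, 132 and 103 in the difference and 357, 326 and 293 in the remainder. Its untreated libraries were the lowest and its remainder libraries the highest, with log2 fold changes of 2.41 ± 0.23 with IL-4 (adjusted p = 3.1e-05), 2.70 ± 0.23 in the difference (1.2e-06) and 3.83 ± 0.22 in the remainder (2.9e-08). The remainder exceeded the difference by 1.14 (adjusted p = 0.0019, and 1.06 with 0.13 without mouse 3). *Il1r1*, the signalling IL-1 receptor gene, had 16, 13 and 8 counts untreated and 23, 11 and 17 with IL-4. It had 74, 70 and 50 in the difference and 35, 44 and 42 in the remainder, with log2 fold changes of 2.45 ± 0.27 (adjusted p = 1.4e-05) and 1.78 ± 0.28 (0.00029). *Il18rap*, which encodes the accessory chain of the IL-18 receptor and is named after its values were seen, had 38, 46 and 28 counts with IL-4, 24, 10 and 7 in the difference and 13, 9 and 20 in the remainder. It was called lower against IL-4 in the remainder (-1.44, adjusted p = 0.011) and in the difference (-1.50, adjusted p = 0.0087). The decoy receptor gene *Il1r2* had at most 4 counts and *Il18r1* at most 2.

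In receptor signalling, where 9 of 9 genes were tested, *Irak3*, a brake on the signal, had opposite calls. It was lower with IL-4 (-0.55 ± 0.10, adjusted p = 0.0041, and 0.14 without mouse 3) and higher in the difference (0.66 ± 0.09, adjusted p = 0.00015). In the remainder it was -0.21 (95% interval -0.41 to 0.00) against untreated cells and -0.86 ± 0.09 (adjusted p = 8.1e-05) against the difference.

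Of 9 inflammasome sensor genes tested beside *Naip1*, 3 were higher and 2 lower in the difference and 2 higher and 2 lower in the remainder, where 23.2% and 25.3% of all genes were called. With the mouse as a block *Nlrp1a* in the difference (adjusted p = 0.041, and 0.05 with the block) and *Nlrp1b* in the remainder (0.042 and 0.07) were no longer called, which left 4 and 3. *Mefv*, the pyrin gene, had 366, 330 and 417 counts untreated, 1204, 1414 and 1284 in the difference and 1371, 1900 and 1451 in the remainder. Its log2 fold change was 1.89 ± 0.15 (adjusted p = 5.3e-07) and 2.15 ± 0.15 (1.4e-07). *Naip1* had 6, 1 and 6 counts untreated, 6, 4 and 4 with IL-4, 21, 20 and 19 in the difference and 25, 25 and 13 in the remainder. Of the 50-base stretches of its transcripts 31.5% also occur in other genes, most in *Naip2*, so its counts are uncertain. *Nlrp10* fell by 0.92 (adjusted p = 0.0049) and by 0.72 (0.017) on the log2 scale in the parts, while with IL-4 it was 0.73 higher (adjusted p = 0.049, and 0.076 with the mouse as a block). The IL-4 call was lost in each fit that left out a mouse or a library (adjusted p = 0.054 to 0.6), and the remainder call without mouse 1 (0.15), 2 (0.057) or 3 (0.06), the untreated library of mouse 1 (0.057) or the remainder of mouse 1 (0.069) or 3 (0.052). *Nlrp1b* was -0.76 (adjusted p = 0.02) in the difference, lost without mouse 3 (0.13), the untreated library of mouse 1 (0.099) or the difference of mouse 2 (0.068) or 3 (0.061), with 1.45% of its 50-base stretches shared, most with *Nlrp1a*.

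Among the 10 modulator and pore genes tested, 2 were higher and 1 lower in the difference, and 1 higher and 2 lower in the remainder. That is 30% in each, where 23.2% and 25.3% of all genes were called. *Gbp5*, named after its values were seen, rose most and was called higher in both parts (log2 fold change 1.44 and 1.34). It had 81, 52 and 55 counts untreated, 237, 150 and 103 in the difference and 178, 157 and 117 in the remainder. *Txnip*, a binding partner of NLRP3, was higher with IL-4 (0.58 ± 0.07, adjusted p = 0.00036), with 15.7% of its 50-base stretches shared with other genes. In the difference *Gsdme*, another gasdermin gene, was below its untreated level (-0.44, adjusted p = 0.045, and 0.07 with the mouse as a block), a call lost without mouse 1, 2 or 3 (0.33, 0.13 and 0.11) or without any 1 of 8 single libraries. *Nlrc3* (-0.52, adjusted p = 0.012), an NLR family gene, and the channel gene *Panx1* (-0.50, adjusted p = 0.014) were lower in the remainder. The *Nlrc3* call was lost without mouse 1, 2 or 3 (0.072, 0.067 and 0.072) and the *Panx1* call without mouse 2 (0.081) or 3 (0.097).

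**Figure D4:**
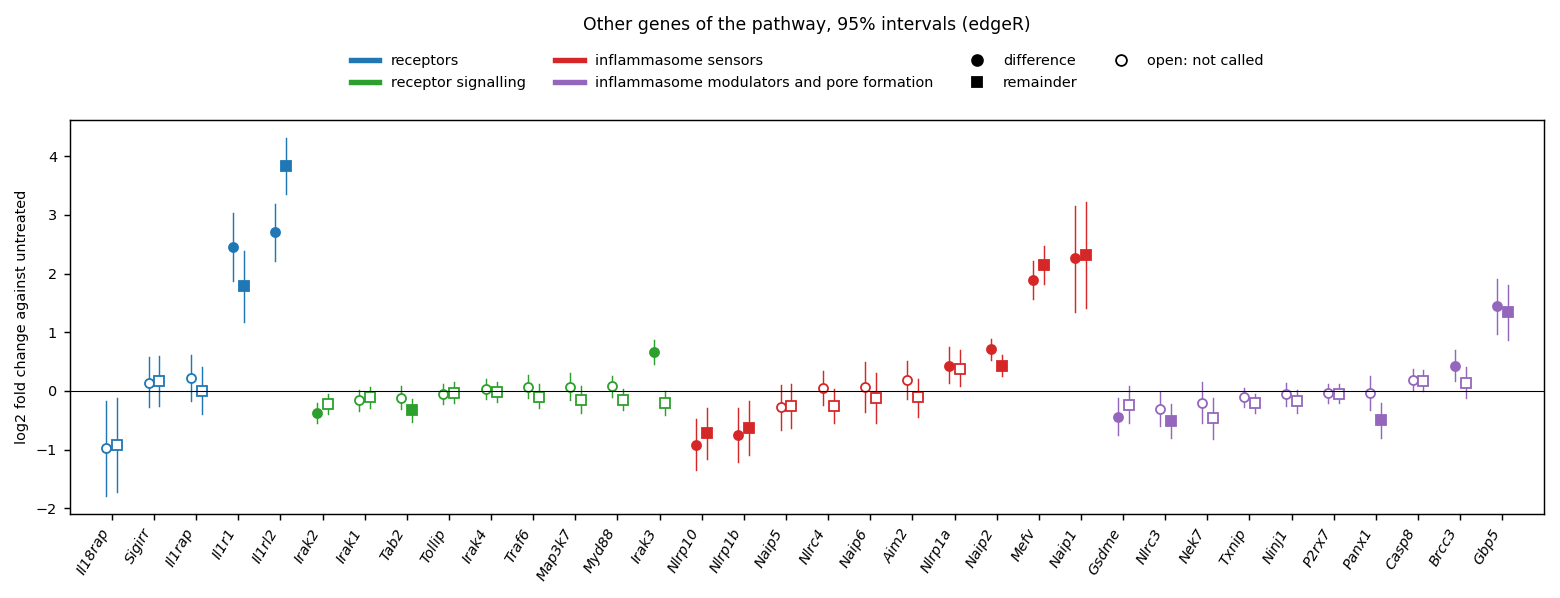
Log2 fold changes against untreated cells (y axis) with 95% intervals from edgeR for the pathway genes that passed the count filter (x axis), in the difference (circles) and the remainder (squares), coloured by role and open where the adjusted p was 0.05 or higher. *Il1rl2* reached 3.83 in the remainder, and the receptor signalling genes stayed between -0.37 and 0.66.

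Markers of other cells were measured beside these changes. All 8 macrophage markers were tested, with summed levels of 44100 to 68100 CPM over the libraries, and against untreated cells 3 were higher in the difference and 2 in the remainder. *Lyz2* was the most abundant. Of 8 neutrophil markers 5 were tested. Their summed level was 39.3 to 49.6 CPM untreated, 51.5 to 61.3 with IL-4, 28.9 to 45.8 in the difference and 26.2 to 30.4 in the remainder, and against untreated cells those called all fell, 1 in the difference and 3 in the remainder. Summed stromal markers were 5.74 to 30.1 CPM, and 1 of 3 tested was higher in the difference. Dendritic cell markers summed to 0.643 to 2.4 CPM, and the 1 tested, *Zbtb46*, was higher in the remainder. Mast cell and basophil markers summed to at most 0.55 (*Mcpt4*, *Tpsb2* and *Fcer1a* at 0) and T and NK cell markers to at most 0.263.

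Likeness across the 12 libraries was described by Pearson's r of log2 CPM, with a minimum mean of 8 CPM for members and other genes alike. The libraries share treatments and mice, so no p is given. *Il1b* was most like *Hif1a* (r = 0.97), *Atrnl1* (0.969) and *Sirpb1c* (0.96). *Il1rn* was most like *Lad1* (0.988), *Cd274* (0.983) and *Trim25* (0.982), and *Il18bp* was most like *Cd274* (0.987), *Cst7* (0.987) and *H2-Eb1* (0.983). *Nlrp3* was most like *Klhl6* (0.96), *Cxcr3* (0.945) and *Cx3cr1* (0.944). *Pycard* was most like *Cyc1* (0.981), *Copz1* (0.981) and *Psmb10* (0.979), and *Gsdmd* was most like *Mocs1* (0.99), *Pex16* (0.985) and *Cxcl16* (0.985). *Casp1* was most like *Eif1a* (0.976), *Rlf* (0.961) and *Lipo3* (0.958), and *Casp4* was most like *2210406H18Rik* (0.928), *Rab9* (0.92) and *Cysltr1* (0.912). Among the members *Il1rn* and *Il18bp* had an r of 0.98, *Casp1* and *Casp4* 0.84, and *Il1b* and *Nlrp3* 0.04. *Il1a* (mean 1.1 CPM) and *Il18* (6.88) were under the minimum.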

How the data were processed

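Per the labels and the methods of the study, total RNA was sequenced as single reads, trimmed with Trimmomatic 0.36, aligned to mm10 with STAR 2.6.0 and counted per gene with HTSeq 0.11.1. The strand setting and annotation version are not given in the sources used here. The authors deposited these as raw read counts per gene, which were used as deposited apart from the solving of the Wnt3a-containing columns (29879207 to 51905621 counts) into parts by subtraction.

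Genes that reached 10 counts in 3 or more libraries were fitted in 1 model of the 12 libraries with edgeR 4.0.16 (TMM, quasi-likelihood, R 4.3.3), with Benjamini-Hochberg adjustment over 12421 genes. DESeq2 1.42.0, other scalings and filters, and left-out libraries were alternatives. CPM are TMM-normalized. P-values measure the spread between the libraries of 3 mice within a group, pooled over the groups. The same fit on simulated counts for the difference against untreated cells recovered 176 of 200 changed genes with 13 false calls among 12247 genes. All planted changes were of log2 1 or more in size, so smaller changes were not covered. The simulated libraries were drawn independently, without an effect of the mouse and without subtraction of columns. Treatments share mice, so the mouse numbers pair libraries by animal. The main fit had no term for the mouse and so did not use this pairing, and a fit with the mouse as a block was an alternative. Within-group deviations of same-mouse libraries correlated from -0.417 to 0.454, and 6 of 18 pairs exceeded 0.1. The members and lists were chosen with earlier results of these data known. Pathway genes were named by the 3 highest and 3 lowest called changes with the same sign in all 3 mice. Symbols and positions are from GENCODE M21.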

Additional observations from a re-analysis of the deposited data

Results flagged for a closer look

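With the difference taken as the Wnt3a+IL-4 culture, the effect of IL-4 with Wnt3a differed from its effect without Wnt3a in 4 members by an interaction term in edgeR. The log2 differences were 1.86 for *Il1b* (adjusted p = 0.014, and 0.15 without mouse 1) and 1.31 for *Nlrp3* (adjusted p = 8.9e-06). They were -1.15 for *Il1rn* (adjusted p = 0.0063) and -1.31 for *Il18bp* (adjusted p = 0.00027). With the remainder taken as the Wnt3a+IL-4 culture, 0 members differed by edgeR or by DESeq2 and 2 had an unadjusted p under 0.05. Of all tested genes edgeR called 0.105% there. The labels do not say which assignment holds.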

How the results depend on the processing

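Of 1969 member values under 25 alternative settings, 1887 kept their call or its absence, 53 lost a call, 28 gained one and 1 reversed. The reversed value was *Nlrp3* in the remainder against IL-4, -0.08 in the fit of the parts and 0.21 (adjusted p = 0.027) with the columns as deposited. In that setting the Wnt3a+IL-4 column stands in for the remainder. That column is the sum of both parts, so its value is another quantity than the remainder's. For the named pathway genes 924 of 1011 values kept their call or its absence. *Irak3* in the remainder against untreated cells reversed, from -0.21 to 0.27 (adjusted p = 0.037) with the columns as deposited, where the same summed column stands in. Among 1048 member values called in neither fit 52 had the other sign. For IL-4 against untreated 1 member was called under total-count scaling (459 genes in all) or at an adjusted p under 0.01 (227 in all). At an adjusted p under 0.05, 0 were called when a log2 change of 1 or more in size was also required (133 in all). That requirement left 4 members in the difference and 4 in the remainder against untreated cells, and 1 between the parts. Between the columns as deposited, which share reads, 0 members were called by edgeR and 0 had an unadjusted p under 0.05. The IL-4 interaction with the remainder as Wnt3a+IL-4 called 2 members with a minimum of 1 count (575 genes in all). It called 1 with the columns as deposited (142 in all). Leaving out libraries gave 1 to 2 calls for IL-4, 5 to 8 for the difference and 6 to 8 for the remainder against untreated cells, 1 to 5 between the parts (1 without mouse 3), 5 to 7 for the remainder and 6 to 8 for the difference against IL-4, and 0 and 3 to 6 for the interactions. With the mouse as a replicate block the counts of called members were 2, 7, 7, 4, 6, 6, 0 and 4, and no member call changed. Per kilobase the *Il1rn* to *Il1b* ratio was 0.193, 0.339, 0.0538 and 0.287 and the *Il18bp* to *Il18* ratio 0.508, 0.927, 1.61 and 3.05 (untreated, IL-4, difference, remainder). Leaving out a mouse, the first ranged over 0.48 to 0.623, 0.833 to 1.2, 0.129 to 0.171 and 0.746 to 0.996, and the second over 1.45 to 1.52, 2.61 to 2.83, 4.53 to 4.97 and 7.59 to 10.3. Total-count scaling shifted the median log2 fold change of all genes against untreated to -0.101 in the difference and -0.13 in the remainder. Depth limited *Il1a* most, with at most 4 counts per library without Wnt3a.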
